A study of Homo sapiens with 4 samples.

Results

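Distal open chromatin was compared between AMO1 cells with PHF19 overexpression and AMO1 cells with the empty vector. AMO1 is an established human myeloma line of plasma cell type, and per the labels the cells were transfected with PHF19 plasmids in the PCDH vector or with that vector empty, which the labels also give the genotype WT. The regions are the overlapping ATAC-seq peaks of the 2 libraries on chromosomes 1 to 22, merged, that lie more than 2500 bp from both ends of every protein-coding gene of hg38. This rule kept 39159 of the pair's 52926 regions. Peaks of all 4 libraries of the series merged into 71853 regions. Of the distal regions, 19329 lie inside a protein-coding gene and 19830 between genes, and 7306 of 19122 protein-coding genes hold at least 1. A second pair of AMO1 libraries, with PHF19 overexpression and with the empty vector, has IFN at the start of its titles, a prefix that no label explains. It shares no library with the first pair and was not used to choose any region, so it is given beside the results as a separate measurement. Each group holds 1 library, so no difference was tested. The labels do not say how many cultures or clones a library came from, whether the transfection was stable, or whether the pairs came from separate transfections.

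ATAC-seq marks DNA that the Tn5 transposase can reach. Distal accessible regions are mostly enhancers and other regulatory elements, where transcription factors have displaced nucleosomes, and they carry much of what distinguishes one cell type from another. PHF19 is a Polycomb-like accessory subunit of Polycomb repressive complex 2, which methylates histone H3 at lysine 27 and keeps developmental genes silent. Its Tudor domain reads methylated lysine 36 of the same histone, and proteins of its family bind unmethylated CpG-rich DNA through a winged-helix domain. In multiple myeloma, high PHF19 expression is known as a marker of aggressive disease.

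A small share of distal regions hold the start of a transcript, and there RefSeq gives the sequence. A RefSeq promoter window, from 250 bases before to 50 bases after a gene's start, overlapped 1936 of the 39159 regions (4.94%). These windows belong to protein-coding genes whose listed start lies away from the gene's outer end, or to long non-coding RNAs. Among the regions set side by side in height below, 12.8% of those that differed by less than 2-fold overlapped a window, against 6.30% of those at least 2-fold higher and 4.61% of those at least 2-fold lower with PHF19 overexpression (8 of 127 and 22 of 477). These groups were not matched for height. Mean heights of 2 to 4 fragments per M made up 114 of the 127, 322 of the 477 and 5897 of all 10732 regions compared. Windows lying whole inside a region had a median of 37 CpG dinucleotides in the higher regions (7 windows, 11 to 53), of 5 in the lower regions (20 windows, 0 to 35) and of 24 in the tested regions that were neither (1461 windows). Over all 33725 autosomal windows the median was 14. The following 4 windows (RefSeq, GRCh38.p14) show this contrast. They were picked after their values were seen: RIMKLB and SVIL have the largest ratio in either direction among called regions whose window can be printed, CARINH lies in a run of higher regions, and IQGAP2 holds several lower regions. The 4 windows lie at chr12:8697741-8698040 (plus strand) for RIMKLB, chr5:132410679-132410978 (plus strand) for CARINH, chr10:29634922-29635221 (minus strand) for SVIL and chr5:76547159-76547458 (plus strand) for IQGAP2. Each is written 5′ to 3′ on its own strand, and capitals mark each CpG dinucleotide.
RIMKLB: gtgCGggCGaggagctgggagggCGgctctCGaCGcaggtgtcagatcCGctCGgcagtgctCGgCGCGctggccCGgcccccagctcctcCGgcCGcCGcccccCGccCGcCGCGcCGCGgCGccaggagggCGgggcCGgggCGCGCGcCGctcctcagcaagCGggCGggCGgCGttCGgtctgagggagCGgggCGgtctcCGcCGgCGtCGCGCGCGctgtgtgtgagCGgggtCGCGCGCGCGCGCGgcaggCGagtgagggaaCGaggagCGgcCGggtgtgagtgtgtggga
CARINH: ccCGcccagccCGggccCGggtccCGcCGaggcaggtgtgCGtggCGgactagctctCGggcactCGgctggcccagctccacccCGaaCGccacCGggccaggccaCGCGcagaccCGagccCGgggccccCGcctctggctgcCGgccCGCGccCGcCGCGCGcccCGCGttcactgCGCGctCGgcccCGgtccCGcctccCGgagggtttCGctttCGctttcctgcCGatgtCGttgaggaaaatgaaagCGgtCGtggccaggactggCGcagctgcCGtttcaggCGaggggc
SVIL: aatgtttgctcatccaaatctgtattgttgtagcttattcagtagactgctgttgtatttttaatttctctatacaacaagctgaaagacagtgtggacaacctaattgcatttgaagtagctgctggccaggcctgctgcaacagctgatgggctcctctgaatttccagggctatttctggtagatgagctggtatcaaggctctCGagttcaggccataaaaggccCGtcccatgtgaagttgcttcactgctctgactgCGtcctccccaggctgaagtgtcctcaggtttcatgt
IQGAP2: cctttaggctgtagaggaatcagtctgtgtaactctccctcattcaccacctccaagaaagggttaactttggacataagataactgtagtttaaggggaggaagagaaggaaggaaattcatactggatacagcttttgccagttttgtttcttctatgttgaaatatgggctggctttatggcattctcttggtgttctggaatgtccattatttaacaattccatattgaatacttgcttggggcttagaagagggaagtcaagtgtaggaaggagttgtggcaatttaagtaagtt
The RIMKLB window has 53 CpG dinucleotides, CARINH 41, SVIL 3 and IQGAP2 0. RIMKLB makes an enzyme that joins glutamate to other molecules in the brain, CARINH is a long non-coding RNA beside IRF1, SVIL makes the actin-binding protein supervillin, and IQGAP2 makes a scaffold of the actin skeleton. The region at RIMKLB reached 3.46 fragments per M with PHF19 overexpression and 1.24 with the empty vector (log2 ratio 1.58, 95% interval 0.96 to 2.23). At CARINH the heights were 9.0 with PHF19 overexpression and 4.24 with the empty vector (1.19, 0.84 to 1.55). At SVIL they were 1.21 with PHF19 overexpression and 4.97 with the empty vector (-1.93, -2.65 to -1.28), and at IQGAP2 5.21 with PHF19 overexpression and 12.2 with the empty vector (-1.12, -1.46 to -0.79). The IFN-prefixed pair had log2 ratios of 1.39, 1.19, -1.48 and -1.15 at RIMKLB, CARINH, SVIL and IQGAP2. Once the local median, taken over regions up to 2.5 Mb away, was removed, IQGAP2 was at -0.04, while the other 3 stayed at 1.29, 0.88 and -1.87. Short motifs were searched on both strands of these windows. GGGCGG, the GC box, which itself holds a CpG, is present at RIMKLB and CARINH and in 45.0% of all windows. A pair of GAAA blocks with any 2 bases between them, a pattern of interferon response elements, is present at CARINH, where 3 matches lie at bases 212 to 221, 218 to 227 and 245 to 254 of the window, and in 3.57% of all windows. TGACTCA (AP-1, 4.91% of all windows), CCGGAAGT (ETS, 4.19%) and TATAAA, bound by the general factor TBP (11.6%), are in none of the 4 windows. No match of one motif overlaps a match of another in them.

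Heights are the largest pileup in a region, the number of fragments that cover its tallest summit, given per M (mega) of the library's fragments. Log2 ratios are PHF19 overexpression over empty vector and are centred: the median over every region called in both libraries, which was -0.11, was taken off each ratio. Without centring every ratio is therefore 0.11 lower. The peak lists rest on 18.2 M fragments with PHF19 overexpression and 27.4 M with the empty vector, and on 16.4 M with IFN-prefixed PHF19 overexpression and 65.9 M with the IFN-prefixed empty vector. The intervals are exact 95% intervals for a ratio of counts and cover counting error only. In such bulk libraries, fewer cells with an open site and a less open site in every cell cannot be told apart.

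Distal regions with a peak in both libraries were low and spread widely around no change. The 25271 of them had a median height of 1.65 per M with PHF19 overexpression and 1.68 with the empty vector, against 6.04 with PHF19 overexpression and 6.80 with the empty vector in regions within 2500 bp of a gene end. Their median log2 ratio was 0.04 with an SD of 0.57 over regions, against -0.04 and 0.38 near gene ends. The sign of this median depends on height. Over the 10732 distal regions with a mean height of at least 2 per M it was -0.11. It was 0.24 in distal regions under 1 per M and -0.20 in those from 8 to 16 per M, and near gene ends the same height classes had 0.28 and -0.11.

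Among the 10732 tall enough to compare, 127 distal regions were at least 2-fold higher with PHF19 overexpression (1.18%) and 477 at least 2-fold lower (4.44%). Over all regions of the pair, near gene ends or not, the shares were 0.88% and 2.56%, and near gene ends they were 0.57% and 0.62% (59 and 64 of 10393). Distal regions were lower in height, so the shares were also compared within classes of height. From 4 to 8 per M, 3.68% of distal regions and 0.30% of those near gene ends were at least 2-fold lower, and from 8 to 16 per M 2.20% and 0.38%. At 16 per M or more they were close, 1.72% and 1.45% (3 of 174 and 11 of 758). From 2 to 4 per M the shares on the higher side were 1.93% distal and 2.43% near gene ends. Lower regions made up 2.95% of regions 2500 to 10000 bp from a gene end, 4.45% at 10000 to 50000 bp, 5.30% at 50000 to 200000 bp and 7.83% farther out. Higher regions made up 0.85%, 1.40%, 0.93% and 2.03% of the same classes. These classes were not matched for height: the median over shared regions with the empty vector was 2.08 per M in the nearest class and 1.28 in the farthest. The share of lower regions was much the same for distal regions inside genes, 4.27%, and between them, 4.63%. All 604 intervals of these regions lay on one side of 0, but the same counts chose the regions, so this adds no support. Only 12 of the higher and 110 of the lower regions had an interval wholly beyond 2-fold. Without centring, 77 regions were higher and 624 lower.

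**Figure D1:**
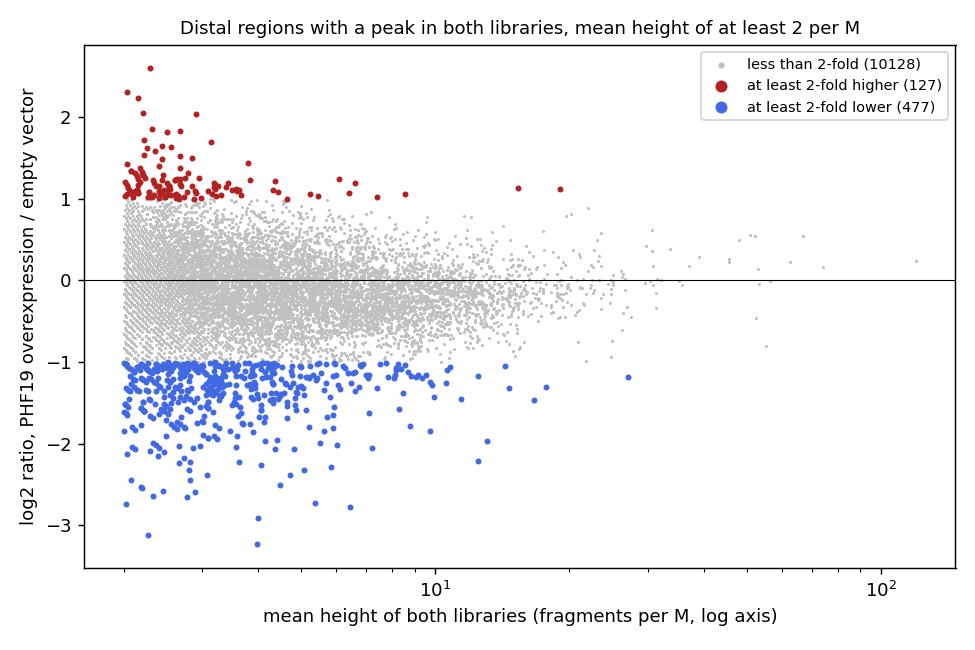
Log2 ratio of PHF19 overexpression over empty vector against the mean height of both libraries, in fragments per M on a log axis, for the 10732 distal regions called in both libraries with a mean height of at least 2 per M. Each point is a region: 127 were at least 2-fold higher (red) and 477 at least 2-fold lower (blue), and most of either lie below 8 per M.

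Regions 2001 to 2500 bp from a gene end, just outside the definition, had a median log2 ratio of 0.03 and 5 higher and 9 lower regions among 309, and those 2501 to 3000 bp away had -0.01 with 0 and 4 among 276. The nearest kept region of sufficient height, 2501 bp from a gene end on chromosome 11, had 3.07 per M with PHF19 overexpression and 3.51 with the empty vector, and the nearest one left out, at 2499 bp on chromosome 3, had 4.39 with PHF19 overexpression and 4.28 with the empty vector.

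PHF19 itself (chr9:120855651-120904128) holds 4 distal regions, and in the unprefixed pair all differed by less than counting error. From the lower to the upper end of the gene they had 10.5, 9.11, 4.94 and 4.61 per M with PHF19 overexpression, against 12.4, 8.88, 6.43 and 5.99 per M with the empty vector. The log2 ratios were -0.13, 0.15, -0.27 and -0.27, and each interval included 0. In the IFN-prefixed pair all 4 were between -0.30 and -0.23. There the interval of the first region lay below 0 (-0.57 to -0.04), and those of the others included 0. The narrow peak that only the PHF19 overexpression library of the pair held in this gene, at 120857950 to 120858284, had 7.90 per M. In the IFN-prefixed pair, too, only the PHF19 overexpression library had a peak there, of 7.33 per M. This region lies 2299 bp from the gene's end and so just outside the definition.

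The largest decreases lay beside or inside genes of quite different kinds. The region with the lowest ratio, chr1:202105778-202106905, lies 16012 bp from GPR37L1, an orphan receptor of astrocytes. It had 13 fragments or 0.71 per M with PHF19 overexpression and 198 fragments or 7.24 per M with the empty vector, a log2 ratio of -3.23 (-4.17 to -2.43). In the same part of chromosome 1, a region 17244 bp from ELF3, an epithelial transcription factor of the ETS family, had 0.60 per M with PHF19 overexpression and 4.06 with the empty vector (-2.64). On chromosome 5, a region 112514 bp from TSLP, a cytokine that epithelia release to start allergic inflammation, had 0.44 per M with PHF19 overexpression and 4.09 with the empty vector (-3.11, -4.36 to -2.08). A region 6280 bp from THY1, a surface glycoprotein of thymocytes and neurons, lies inside the antisense RNA gene USP2-AS1 on chromosome 11 and had 0.88 per M with PHF19 overexpression and 7.13 with the empty vector (-2.91, -3.75 to -2.18). Inside SV2C, a glycoprotein of synaptic vesicles, the region at chr5:76303835-76304518 was the tallest of the group, with 1.54 per M with PHF19 overexpression and 11.4 with the empty vector (-2.78, -3.39 to -2.22).

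The region next in order of ratio lay 10366 bp from PDHX, a structural subunit of the pyruvate dehydrogenase complex, at -2.73. One 42588 bp from TOP3B, a topoisomerase, lies within the immunoglobulin lambda locus on chromosome 22 and had 1.32 per M with PHF19 overexpression and 9.43 with the empty vector (-2.73, -3.40 to -2.13). The region inside ZDHHC18, a palmitoyltransferase, was at -2.65 and the one inside LHFPL2 at -2.58. On chromosome 8 a region inside the long non-coding RNA gene PVT1, 333684 bp from MYC, had 0.77 per M with PHF19 overexpression and 5.01 with the empty vector (-2.60, -3.50 to -1.80). In all 10 the decrease was past 2-fold with the local median removed too. At 7 of them the IFN-prefixed PHF19 overexpression library had no peak while the IFN-prefixed empty vector library had one of 3.35 to 7.15 per M, and at the other 3, SV2C, PDHX and TOP3B, the IFN-prefixed pair had -2.57, -1.98 and -2.44.

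The largest increases were smaller and came from lower heights. A region 314270 bp from KIF4B, a kinesin gene without introns, had 71 fragments or 3.90 per M with PHF19 overexpression and 19 fragments or 0.69 per M with the empty vector (log2 ratio 2.60, 1.85 to 3.41). A region 15281 bp from AMPH, which makes amphiphysin, lies within the T cell receptor gamma locus on chromosome 7 and had 3.51 per M with PHF19 overexpression and 0.80 with the empty vector (2.24, 1.52 to 3.01). There the IFN-prefixed pair was at 0.38, with an interval that includes 0 (-0.04 to 0.79). Inside GRAMD1B, a carrier of cholesterol from the plasma membrane to the endoplasmic reticulum, the region at chr11:123430045-123431303 had 3.51 per M with PHF19 overexpression and 0.91 with the empty vector (2.05, 1.36 to 2.78), and the IFN-prefixed libraries had 4.40 per M with PHF19 overexpression and 0.68 with the empty vector (2.52). Both next regions were on chromosome 5, one 304632 bp from MSX2, a homeobox gene of skull and limb, at 2.04 (1.45 to 2.67) and one inside SGCD, the delta-sarcoglycan of muscle membranes, at 1.86. The others lay 73653 bp from the chemokine gene XCL2 (1.84), inside RANBP17 (1.82), 50191 bp from the ribosomal protein gene RPL38 (1.72) and inside YWHAQ, a 14-3-3 protein (1.70).

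The increase next in size after KIF4B was the exception in the other pair. The region lies at chr16:10533-11277, close to the end of the chromosome, inside an uncharacterised gene and 35130 bp from POLR3K, a subunit of RNA polymerase III. It had 3.35 per M with PHF19 overexpression and 0.73 with the empty vector (2.30, 1.55 to 3.11), but 0.49 per M with IFN-prefixed PHF19 overexpression and 2.67 with the IFN-prefixed empty vector (-2.62, -3.85 to -1.61). Of the 10 named increases, 9 were above 0 in the IFN-prefixed pair and 7 were at least 2-fold there.

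**Figure D2:**
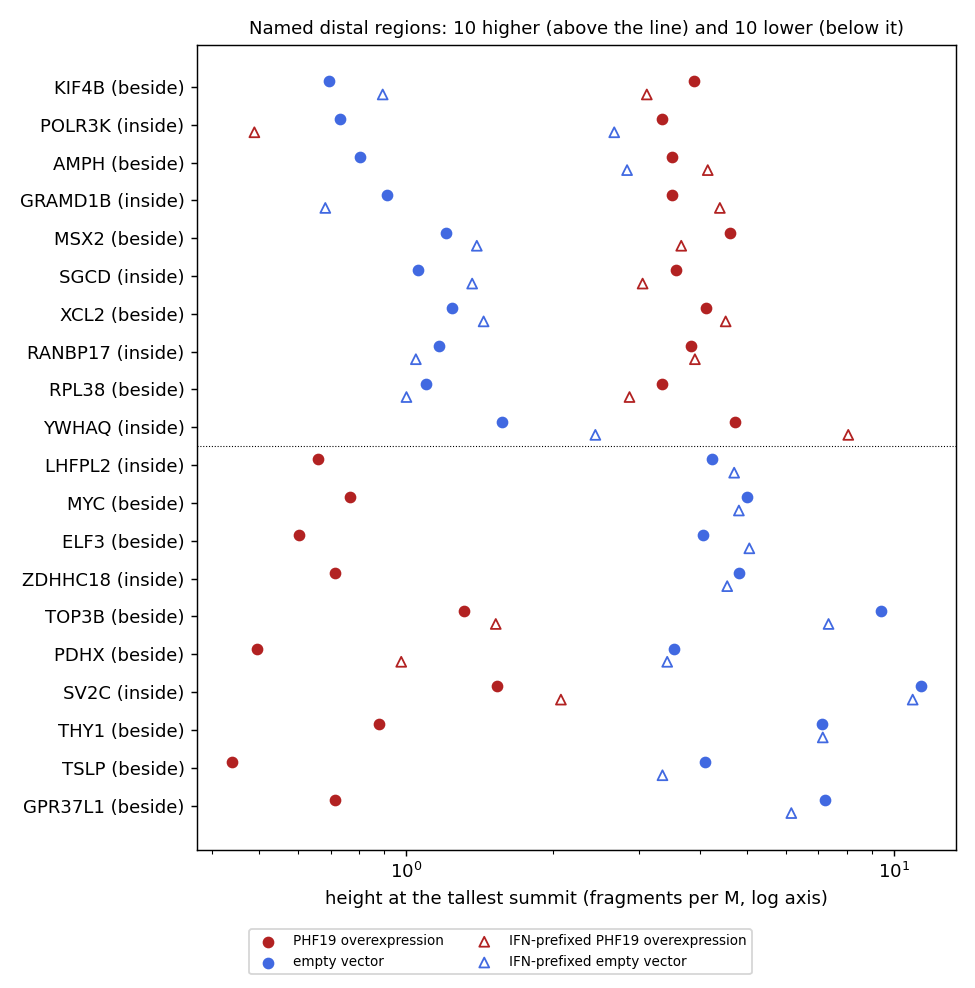
Heights in fragments per M, on a log axis, of the 10 distal regions with the largest increase (upper part) and the 10 with the largest decrease (lower part), in the unprefixed pair (circles) and the IFN-prefixed pair (triangles), with PHF19 overexpression in red and the empty vector in blue. Names give the gene that holds the region or lies nearest to it. No red triangle is drawn at 7 of the decreases, where the IFN-prefixed PHF19 overexpression library had no peak, and at POLR3K, inside an uncharacterised gene, the triangles are in the opposite order to the circles.

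The IFN-prefixed pair gave the same sign at nearly all of these regions, and the decreases lay closer to their first size than the increases. Of the 477 decreases, 452 had a peak in both IFN-prefixed libraries, and 451 of those were below 0 there, 302 of them at least 2-fold (66.8%). Their median was -1.20 in the IFN-prefixed pair against -1.28 in the pair that chose them. The other 25 had no peak in the IFN-prefixed PHF19 overexpression library. Of the 127 increases all had a peak in both IFN-prefixed libraries, 124 were above 0 there and 33 were at least 2-fold (26.0%), with a median of 0.69 against 1.15 in the pair that chose them. For the background, 5.44% of the 10613 tested regions with peaks in both IFN-prefixed libraries were at least 2-fold lower there and 0.60% at least 2-fold higher. These 10613 leaned to the lower side there, with a median of -0.16 and 34.6% above 0. Among regions of this pair that had a negative ratio short of 2-fold, 4.48% were at least 2-fold lower in the IFN-prefixed pair, and among those with a positive ratio short of 2-fold 0.76% were at least 2-fold higher. Counted over its own distal regions, the IFN-prefixed pair had 93 of 11587 at least 2-fold higher (0.803%) and 588 at least 2-fold lower (5.07%), and over all its regions the shares were 0.63% and 2.96%.

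**Figure D3:**
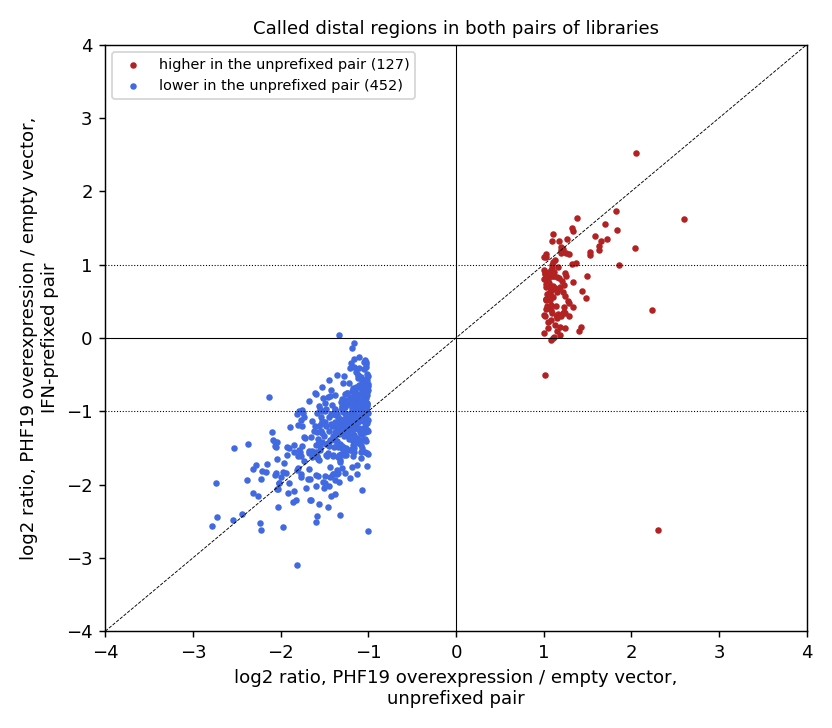
Log2 ratio of PHF19 overexpression over empty vector in the IFN-prefixed pair (vertical) against the unprefixed pair (horizontal) for the distal regions at least 2-fold different in the unprefixed pair that had peaks in both IFN-prefixed libraries, 127 higher (red) and 452 lower (blue). Dotted lines mark 2-fold and the dashed line equal ratios; 124 red points lie above 0 and 451 blue points below 0, and the choice of regions by the horizontal axis leaves no points between -1 and 1 on it.

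Some of the changed regions lay side by side. Runs of at least 3 regions changed the same way, each within 100 kb of the next, numbered 11 among the decreases (45 regions) and 4 among the increases (13 regions). The longest run of decreases covered NIPAL1, a magnesium transporter, and the neighbouring genes TXK and TEC, tyrosine kinases of lymphocyte receptor signalling (chr4:48027698-48316621). There 10 of the 11 tested regions were at least 2-fold lower, with 1.15 to 8.40 per M with PHF19 overexpression and 3.43 to 25 with the empty vector and a median log2 ratio of -1.35. In the IFN-prefixed pair, all 8 of them with peaks in both libraries were at least 2-fold lower. With the local median removed their own median was -0.55.

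On chromosome 5 the decreases ran through SV2C (5 of 7 tested regions), a stretch nearest to ARRDC3, which makes an arrestin-like adaptor (5 of 7), and a stretch nearest to MEF2C, a transcription factor of B cells, muscle and heart (4 of 6). Shorter runs of 3 lay near TMEM174, near ENC1, near SMIM15, and between ACSL6, a fatty acid activating enzyme, and the cytokine genes IL3 and CSF2. At ACSL6 the 3 regions had 0.93 to 5.93 per M with PHF19 overexpression and 3.14 to 15.3 with the empty vector, and the median with the local median removed was -1.78. The other chromosome 5 runs kept less: with the local median removed SV2C was at -0.51, ARRDC3 at -0.56, MEF2C at -0.43, TMEM174 at -0.58 and ENC1 at -0.49, while SMIM15 was at -1.57. In the IFN-prefixed pair 4 of 5 regions of the SV2C run, 5 of 5 at ARRDC3 and 1 of 4 at MEF2C were at least 2-fold lower. Elsewhere there were runs at SH3BP5, an adaptor that binds the kinase BTK, and inside CLIC5, an intracellular chloride channel protein. A further run, at chr10:8366000-8417047, lies between genes. Its nearest gene is GATA3, the T helper cell transcription factor, which ends at 8075198. The 3 regions of this run had 1.04 to 1.81 per M with PHF19 overexpression and 3.62 to 4.82 with the empty vector. All 3 were at least 2-fold lower in the IFN-prefixed pair. GATA3 itself did not share this decrease. The 1 distal region inside it was at 0.48, and at 0.54 in the IFN-prefixed pair, and the region at its end was at 0.45.

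Of the 4 runs of increases, the one between SLC22A5, the carnitine transporter, and IRF1, which switches on interferon-induced genes, held 4 of 6 tested regions (chr5:132385518-132497286). These had 3.84 to 9.0 per M with PHF19 overexpression and 1.86 to 4.24 with the empty vector, and 2 of them were at least 2-fold higher in the IFN-prefixed pair. The run began 281 kb from the end of the run of decreases at ACSL6, IL3 and CSF2. Beside ID2, an inhibitor of helix-loop-helix transcription factors, 3 of 4 tested regions were at least 2-fold higher, among them the tallest of all 127 increases. They had 8.34 to 25.5 per M with PHF19 overexpression and 3.80 to 12.6 with the empty vector, with ratios of 1.12 to 1.24, and 1 of the 3 was at least 2-fold higher in the IFN-prefixed pair. The remaining runs lay at GRAMD1B (3 of 3) and between SPATA19 and IGSF9B (3 of 4) on chromosome 11, where 2 and 1 of the 3 were at least 2-fold higher in the IFN-prefixed pair. With the local median removed the median of each of the 4 runs fell short of 2-fold. It was 0.79 at SLC22A5, 0.95 at ID2, 0.62 at GRAMD1B and 0.69 at SPATA19.

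By chromosome, number 5 had the highest share in both directions. It held 85 of the 477 decreases and 29 of the 127 increases (17.8% and 22.8%) but 6.37% of the regions tested. Of its tested regions 12.4% were at least 2-fold lower and 4.24% at least 2-fold higher, and 7 of the 11 runs of decreases and 1 of the 4 runs of increases lay on it. Without chromosome 5 there were 98 increases and 392 decreases. Chromosome 8 had the reverse balance of the other autosomes, with 15 increases (3.09%) and 8 decreases (1.65%) and a median log2 ratio of 0.29 over its shared distal regions, and 0.26 over its regions near gene ends. On chromosome 4, 2.62% of regions were higher and 7.0% lower, and on chromosome 11, 2.64% and 3.87%. On chromosomes 9, 15 and 18 no region was at least 2-fold higher. Removing the local median left 53 of the 127 increases and 354 of the 477 decreases past 2-fold.

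**Figure D4:**
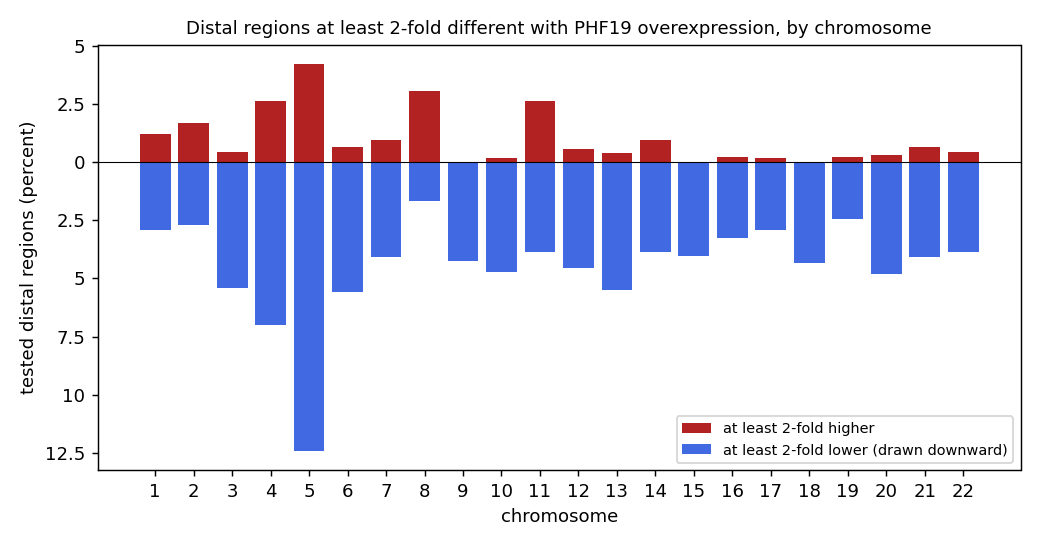
Percentage of tested distal regions at least 2-fold higher (red, upward) and at least 2-fold lower (blue, downward) with PHF19 overexpression on each autosome. Chromosome 5 has the tallest bar both ways, 4.24% and 12.4%, and chromosome 8 is the 1 autosome with more higher than lower regions, 3.09% and 1.65%.

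Read gene by gene, 360 genes held at least 5 distal regions called in both libraries at a mean height of at least 1 per M. The median of a gene's regions was 0.5 or more in 27 genes (7.5%) and -0.5 or less in 39 (10.8%). In the IFN-prefixed pair 26 of the 27 and all 39 had a median of the same sign, and 12 and 21 passed 0.5 there. With the local median removed 9 and 15 of them still passed 0.5. Regions near the ends of the same genes followed on the raised side, with a median of 0.31 over 13 genes that had one, and less so on the lowered side, with -0.09 over 26 genes. Without centring there were 20 raised and 62 lowered genes, and centred on regions near gene ends 29 and 23.

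Among the raised genes KCNIP1, a calcium-binding partner of potassium channels, led with a median of 1.35, and all 8 of its regions were higher, at 1.37 to 3.07 per M with PHF19 overexpression and 0.62 to 1.28 with the empty vector. All 8 were also above 0 in the IFN-prefixed pair (median 0.99). GRAMD1B had a median of 1.24. Its 5 regions reached 4.77, 1.81, 3.51, 3.24 and 5.27 per M with PHF19 overexpression, against 2.41, 0.80, 0.91, 2.52 and 2.41 with the empty vector, so the heights of the libraries overlap across regions while each region was higher with PHF19 overexpression. SGCD (1.09), PSD3, an exchange factor for ARF6 on chromosome 8 (1.0), the procollagen protease ADAMTS2 (0.96), KALRN (0.88), the adhesion protein TENM2 (0.88) and VWF, the von Willebrand factor of endothelium and platelets (0.83), followed. In TENM2 all 9 regions were higher in both pairs. With the local median removed TENM2 was at 0.20 and PSD3 at 0.41, while KALRN stayed at 0.87 but was at 0.10 in the IFN-prefixed pair. Of these 8 genes KCNIP1, SGCD, ADAMTS2 and TENM2 lie on chromosome 5.

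Among the lowered genes, ENTPD1 had the lowest median, -1.13. It makes CD39, an ectoenzyme that breaks down extracellular ATP and is found on activated lymphocytes. Its 5 regions had 2.14, 1.04, 0.82, 1.21 and 1.92 per M with PHF19 overexpression and 2.70, 2.67, 1.94, 4.17 and 1.68 with the empty vector, lower in 4 of 5, and all 5 were below 0 in the IFN-prefixed pair. With the local median removed it was at -1.08, and the region at its end was at -0.13. LHFPL2 was at -1.03 and SV2C, with all 9 regions lower, at -0.76, but with the local median removed these were at -0.19 and 0.27. PPARGC1B, a coactivator of mitochondrial gene expression (-0.74), the vitamin B12 receptor CUBN (-0.71), the Notch coactivator MAML2 (-0.67), the endosomal sodium-proton exchanger SLC9A9 (-0.66) and TNIP3, an inhibitor of NF-kappaB activation (-0.66), came next. CUBN, SLC9A9 and TNIP3 were lower in all 5 of their regions, and with the local median removed CUBN, MAML2, SLC9A9 and TNIP3 remained past -0.5, at -0.59, -0.58, -0.78 and -0.57.

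**Figure D5:**
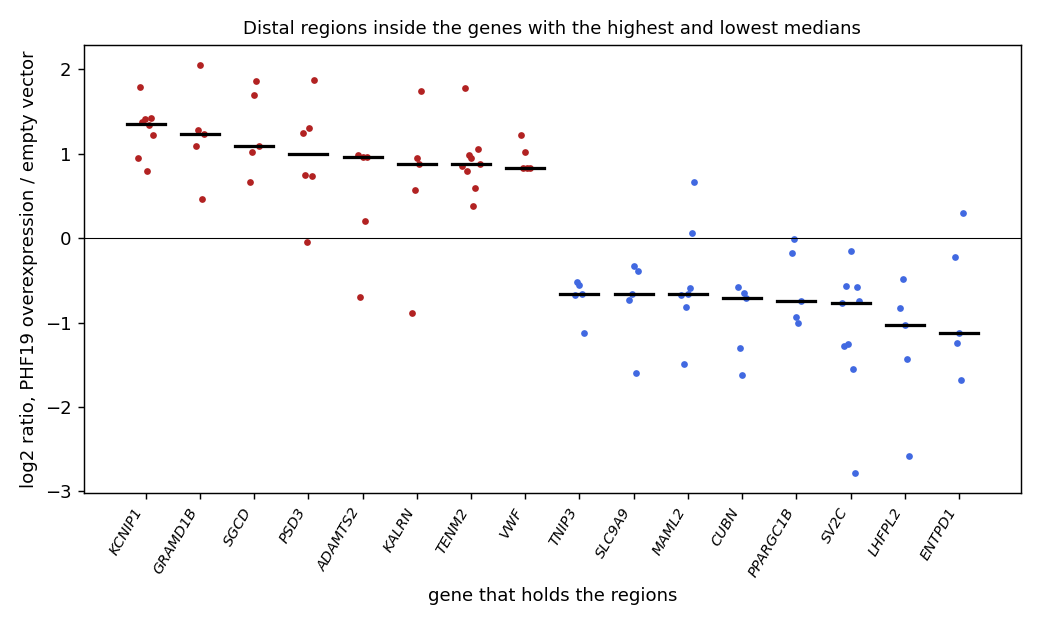
Log2 ratio of PHF19 overexpression over empty vector of each distal region (points) inside the 8 genes with the highest and the 8 with the lowest median (black bars), over regions with a mean height of at least 1 per M. The medians run from 1.35 in KCNIP1 to 0.83 in VWF, and from -0.66 in TNIP3 to -1.13 in ENTPD1; regions of PSD3, ADAMTS2, KALRN, MAML2 and ENTPD1 lie on the other side of 0.

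Few genes held several changed regions. At least 1 decrease lay in 216 genes and at least 1 increase in 63, while 20 genes held 2 or more decreases and 5 held 2 or more increases. SH3BP5 was the 1 gene with both. Besides genes named above, the 20 include IL2RB, the interleukin 2 receptor beta chain (2 regions, -1.04 and -1.03), ALOX5AP, needed to make leukotrienes (2 of 3 regions, median -1.02), and CCDC88C, a regulator of WNT signalling that holds 13 shared regions with a median of -0.29. The potassium channel gene KCNJ15 (-1.26), ANP32A (-1.19), CCDC69 (-1.09), ATXN1, the ataxin-1 gene (-0.45), CALN1 (-0.26) and the neurotrophin receptor gene NTRK2, whose median was above 0 (0.11), are also among them. So are GLB1, the lysosomal beta-galactosidase (median -1.09), ICA1, an islet cell autoantigen (-1.42), and the Rac exchange factors TIAM2 (-0.92) and TRIO (-0.21). In the IFN-prefixed pair the medians were -0.98 for IL2RB, -1.03 for ALOX5AP, -1.33 for GLB1 and -1.25 for ICA1. Beyond the named genes, GFPT2, of the hexosamine pathway, and IGSF9B, an adhesion protein of inhibitory synapses, each held 2 increases.

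Grouped by function, distal regions of NF-kappaB and of interferon signalling genes had the lowest medians over shared regions of any height, but few of them were called. Lists are described by the median over their shared distal regions, against 0.04 over all shared distal regions, and by the number of regions at least 2-fold changed, against the 1.18% and 4.44% above. Because the median ratio was lower over taller regions, the median over regions of at least 2 per M is given for some lists too, against -0.11 over all of these. A named member has at least 3 regions of at least 1 per M, and its value is the median over those. NF-kappaB genes had a median of -0.30 over 26 regions, with 0 increases and 1 decrease among 18 tested, a share near the background. The lowest member was TNIP1, an inhibitor of the pathway, whose 3 regions had a median of -0.61, and the highest MAP3K14, its activating kinase (0.05). Interferon and JAK-STAT genes had -0.23 over 36 regions (0 and 1 of 26 tested), with the nuclear body gene SP100 at -0.62 and the interleukin 6 receptor gene IL6R at 0.21. Plasma cell identity genes had -0.12 over 64 regions, with 0 increases and 4 decreases among 39 tested. MEF2C was lowest at -0.60, which became 0.01 with the local median removed, and POU2F2, an octamer-binding factor of B cells, highest at 0.36, but at -0.04 in the IFN-prefixed pair. With the local median removed these 3 lists were at -0.21, -0.23 and -0.17. Over regions of at least 2 per M the NF-kappaB list was at -0.30, the interferon list at -0.34 and the plasma cell list at -0.32, and the stromal and epithelial markers described below were lower still at -0.47. In the IFN-prefixed pair the same regions had medians of -0.23, -0.24, -0.24 and -0.45, against -0.16 over all tested distal regions with both peaks there.

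Polycomb complex genes, the machinery PHF19 belongs to, were near the middle at -0.06 over 40 regions (0 and 1 of 20 tested). JARID2, another accessory subunit, was highest at 0.44 over 4 regions but at -0.09 in the IFN-prefixed pair, and PHF19 itself lowest at -0.20. Developmental transcription factors, typical Polycomb targets, had 0.11 over 42 regions (0 and 0 of 20), with PRDM16 at 0.70, but at -0.02 in the IFN-prefixed pair, and RUNX2 at -0.62. Over the 20 regions of at least 2 per M this list was at -0.15, against -0.11 over all such distal regions. In the IFN-prefixed pair it was at -0.14, against -0.16 over all tested distal regions with both peaks there. The B cell programme had 0.02 over 57 regions (0 and 2 of 27), with the kinase gene LYN at 0.18 and BACH2, which represses the plasma cell programme, at -0.38. One region of LYN was at -2.53. Myeloma oncogenes and tumour suppressors had 0.20 over 30 regions (0 and 1 of 10), with FAM53A, beside the chromosome 4 translocation site of myeloma, at 0.53 and TRAF3, a brake on NF-kappaB, at -0.43. Over regions of at least 2 per M the myeloma list was at -0.02, the B cell list at -0.09 and the Polycomb list at -0.10.

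WNT signalling genes had 0.19 over 61 regions (0 and 0 of 19), with the transcription factor gene TCF7L1 at 0.96 and the receptor gene ROR2 at -0.30, which was 0.24 over all 6 of its shared regions. Over the 19 regions of at least 2 per M the list was at -0.05. Genes of bone marrow homing and adhesion had 0.20 over 25 regions (0 and 1 of 15), but -0.05 with the local median removed, and both members with 3 regions, PTK2B (0.47) and the integrin ITGA6 (0.20), were above 0. Neuronal adhesion and synapse genes had 0.13 over 190 regions (1 and 1 of 43), -0.01 in the IFN-prefixed pair, with ERBB4 at -0.98 and RBFOX1 at 0.82. The RBFOX1 value rests on 3 regions, 2 of them above 0, and over all 5 of its shared regions the gene was at -0.19. Of the 368 distal regions of this list, 77 had a peak in the PHF19 overexpression library alone (20.9%) and 101 in the empty vector library alone (27.4%). Over all distal regions these shares were 11.8% and 23.6%. Markers of other cells had 0.25 for T and NK cells over 36 regions (0 and 0 of 15; SKAP1 0.37, PRKCQ -0.06), -0.06 for myeloid cells over 8 (0 and 0 of 1) and -0.02 for stroma and epithelium over 26 (0 and 1 of 12; GRHL2 -0.06, CDH1 -0.59). The T and NK cell median was 0.08 with the local median removed, and -0.04 over regions of at least 2 per M. Over regions of that height the neuronal list was at -0.04 and the homing and adhesion list at 0.18, against -0.11 over all of them.

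Regions with a peak in one library alone were mostly low. PHF19 overexpression alone had 4629 (11.8%) and the empty vector alone 9259 (23.6%), against 9.69% and 19.4% over all regions of the pair. Their median heights were 0.66 and 0.69 per M. At the depth of the PHF19 overexpression library, 48.7% of the empty vector's one-sided regions would have fallen below the 10th percentile of the pileups of peaks called in it. With lists of equal length the counts were 5957 and 6229. Above 2 per M, 106 one-sided regions belonged to PHF19 overexpression and 514 to the empty vector. Their fold over the local background, a value of the authors' peak caller, had medians of 3.57 and 4.82, against 8.97 and 9.49 for shared distal regions of that height, so they stood less far above their surroundings. Of the 514, the IFN-prefixed pair had a peak in the empty vector library alone at 311, in both at 198 and in the PHF19 overexpression library alone at 0. Of the 106 it had peaks in both at 65, in the PHF19 overexpression library alone at 8 and in the empty vector library alone at 24. These counts stand against a general imbalance of that pair, whose empty vector library is much deeper. Over all its 54697 distal regions, 43.0% had a peak in the empty vector library alone and 3.33% in the PHF19 overexpression library alone.

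The tallest one-sided regions of both libraries stood only a few times above the local background. With PHF19 overexpression alone, the tallest, inside DIXDC1, a positive regulator of WNT signalling, had 16.7 per M, 3.09 times the local background. The next pair lay 42092 and 57111 bp from LAPTM4A, a lysosomal membrane protein, with 15.8 and 9.60 per M but 1.90 and 1.63 times the local background, followed by regions near the kinase gene MAP2K3 (7.52), near SDC1 (6.91) and inside MTMR4 (5.98). All 6 had peaks in both IFN-prefixed libraries, with ratios of -0.10 to 0.81. With the empty vector alone, the tallest lay 4784 bp from HSP90B1, the chaperone GRP94 of the endoplasmic reticulum (9.68 per M), inside TNIP1 (9.54), inside NDRG4 (8.11), near EEIG1 (8.08), near the linker histone gene H1-10 (7.93) and inside MEF2D (7.89). In the same order they had 3.54, 2.02, 4.16, 3.05, 4.30 and 2.22 times the local background. At TNIP1, NDRG4 and EEIG1 the IFN-prefixed pair also had a peak with the empty vector alone, of 10.3, 8.19 and 6.60 per M. At HSP90B1, H1-10 and MEF2D it had both peaks, with ratios of -0.94, -1.08 and -0.41.

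None of the 12 most accessible distal regions reached 2-fold. Their log2 ratios ran from -0.80 to 0.56, with the interval above 0 at 8 and below 0 at 2. The tallest of all lies inside SDC1, which makes syndecan-1 or CD138, the defining surface marker of plasma cells (chr2:20206657-20209310). It had 125 per M with PHF19 overexpression and 114 with the empty vector (0.24). It belongs to a stretch of chromosome 2 from SDC1 to beyond LAPTM4A (chr2:19851104-20291657) with 41 distal regions, where 31 of the 32 shared regions were above 0 with a median of 0.49, and 0.27 in the IFN-prefixed pair, yet none reached 2-fold. Shared regions there had median heights of 18.3 per M with PHF19 overexpression and 14.9 with the empty vector, but their fold over the local background was 4.58 with PHF19 overexpression and 4.23 with the empty vector, against 6.82 and 7.34 over all shared distal regions. HOATZ and BTG4 on chromosome 11 also hold tall regions. The one in HOATZ had 38.5 per M with PHF19 overexpression and 72.1 with the empty vector (-0.80, and -0.71 in the IFN-prefixed pair). The one in BTG4 had 42.1 per M with PHF19 overexpression and 62.7 with the empty vector (-0.46 and -0.54).

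Defining markers of plasma cells were accessible, and several of other blood cells were not. All 10 plasma cell markers had a region within the gene or 2500 bp of it, and the heights of their tallest regions summed to 409 per M with PHF19 overexpression and 384 with the empty vector. SDC1 made up most of this, and without it the other 9 summed to 114 per M with PHF19 overexpression and 138 with the empty vector. The median over the 10 was 9.05 per M with PHF19 overexpression and 11.2 with the empty vector. With PHF19 overexpression and the empty vector the sums were 27.5 and 30.0 for 6 B cell markers, 40.1 and 36.9 for 8 T and NK cell markers, 12.8 and 16.6 for 6 myeloid markers, 27.2 and 41.0 for 6 stromal and epithelial markers and 26.3 and 34.9 for 6 neuronal markers. MS4A1, CD3D, CD14, LYZ and MPO had no region in either library. The part of other cell types in the differences was not tested.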

How the data were processed

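ATAC-seq peak lists of 4 AMO1 libraries were used. Per the submitters' processing notes, bcl2fastq 2.17, Trimmomatic 0.38, MACS2 2.1.2, DiffBind and hg38 were used. The authors called peaks per library at a q of 0.01, without a control and keeping duplicates, per the file headers; the aligner and any Tn5 shift are not stated in those sources. The deposited pileup column is the signal, unscaled coverage by fragments. The fold enrichment is the authors' ratio to local background, and the deposited -log10 p-values and -log10 q-values are theirs as well; both served only to describe or filter peaks within a list. Duplicates were kept, so fragments are not all independent molecules.

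Summits of a peak were collapsed to the tallest, and peaks of the pair overlapping by 1 bp or more were merged with Python 3.11.15 and pandas 2.3.3. Gene bounds came from RefSeq on GRCh38.p14, without strand or exons. Regions called in both libraries at a mean height of at least 2 per M were called at 2-fold; genes needed 5 regions of at least 1 per M and a median of 0.5. The local median covers 2.5 Mb on either side. The members, the 14 gene lists and the alternatives were chosen with earlier results of these data known. One of the lists is not reported here. Named were PHF19, the 10 shared regions per direction with the largest ratio, the 6 tallest one-sided regions per library, the 8 genes per direction with the largest median, and the highest and lowest member of each list with at least 3 regions; others were picked after their values were seen, and uncharacterised LOC genes were not named. Merging was checked against bedtools 2.31.1 and the calls were tested on simulated data.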

Additional observations from a re-analysis of the deposited data

Results flagged for a closer look

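At 4 regions that were at least 2-fold different in the unprefixed pair, the IFN-prefixed pair had a ratio of the opposite sign; with 1 library per group the difference between the pairs was not tested. The region at chr16:10533-11277, inside an uncharacterised gene 35130 bp from POLR3K, had a log2 ratio of 2.30 (95% interval 1.55 to 3.11) in the unprefixed pair and -2.62 (-3.85 to -1.61) in the IFN-prefixed pair, where the PHF19 overexpression library had 8 fragments and the empty vector library 176. Both intervals lie on one side of 0 there.

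At the other 3 the IFN-prefixed interval includes 0. A region inside SMC6, a subunit of a DNA repair complex related to condensin, was at 1.08 (0.45 to 1.72) and at -0.026 (-0.58 to 0.49) in the IFN-prefixed pair. One inside NCALD, a neuronal calcium sensor on chromosome 8, was at 1.02 (0.39 to 1.65) and at -0.50 (-1.16 to 0.10). One inside PAN3, of a complex that shortens poly(A) tails, was at -1.34 (-2.10 to -0.64) and at 0.043 (-0.42 to 0.48).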

How the results depend on the processing

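The numbers of regions at least 2-fold lower (477) and higher (127) were within 1.5 times of these values under a distance limit of 1000 or 10000 bp, peaks at a q of 1e-05, lists of equal length, a stricter overlap, centring on regions near gene ends, removal of the trend with height and leaving out chromosome 5. The minimum height moved them most: at 1 per M there were 862 lower and 602 higher regions, and at 4 per M 155 and 13. Without centring there were 77 higher regions, and with the local median removed 66. The median over shared distal regions was 0.04 as given and -0.069 without centring, -0.029 with the height trend removed, -0.021 over regions of at least 1 per M and -0.11 over those of at least 2 per M. It was 0.084 when centred on regions near gene ends, 0.026 with the local median removed and 0.027 with lists of equal length. Raised genes (27) numbered 9 with the local median removed, 44 at a minimum height of 0.5 per M and 2 at 2 per M. Lowered genes (39) numbered 62 without centring, 23 when centred on regions near gene ends, 23 with the local median removed and 15 at 2 per M. Regions with a peak in PHF19 overexpression alone numbered 2839 at a q of 1e-05 and 1394 at 5 times the local background or more, and in the empty vector alone 3489 at that background limit. Of called regions with peaks in both IFN-prefixed libraries, 99.3% had the same sign there, 93.6% at a minimum height of 1 per M and 100% at 4 per M. The cause of these changes was not tested. Settings on the local background, chromosome 5 and the heights used in the IFN-prefixed pair were chosen after seeing the data. No paired analysis was possible because each group holds 1 library, and for the same reason no replicate could be left out. Depth limits what can be called, and the lowest distal region called in the PHF19 overexpression library had 0.44 per M.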
